A study of Mus musculus with 30 samples.

Results

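The cyclins, *Cdk1* and the CDK inhibitors of the CIP/KIP family were followed in microglia from before birth to adulthood and after microglial repopulation. The members were 10 genes chosen by name, with earlier results of these data known: *Ccnd1*, *Ccnd2*, *Ccnd3*, *Ccna2*, *Ccnb1*, *Ccnb2*, *Cdk1*, *Cdkn1a*, *Cdkn1b* and *Cdkn1c*. Of these, 9 had a row among the 14225 transcripts (13483 gene symbols) of the expression table, and *Cdkn1c* had none. *Cdkn1a* had 2 rows, NM_007669 and NM_001111099, so that 10 member transcripts were measured.

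RNA was measured in 30 libraries, 3 in each of 10 groups. All offspring were C57BL/6J mice, and their dams had received saline (Saline) or, to provoke maternal immune activation (MIA), the viral RNA mimic poly(I:C). Saline and MIA offspring were taken at embryonic day 17 (E17) and at postnatal days 7, 20 and 60 (P7, P20 and P60). At P60 each kind of offspring had been fed either control chow throughout (CTRL) or chow with PLX5622, an inhibitor of the CSF1 receptor that depletes microglia, and then control chow while the microglia returned (MG-REP). Microglia were taken from the whole brain with CD11B beads, and a library held 1 litter at E17, 3 pooled brains at P7 and 1 brain at P20 and P60. Offspring of both sexes were used, and the labels do not give the sex of a library.

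Cells enter the cycle when D-type cyclins bind CDK4 and CDK6 and start the phosphorylation of the retinoblastoma protein, which frees E2F transcription factors. Cyclin A2 then acts in S phase and G2, and cyclins B1 and B2 bind CDK1 to drive mitosis. The proteins p21 (*Cdkn1a*), p27 (*Cdkn1b*) and p57 (*Cdkn1c*) bind and restrain cyclin and CDK complexes, and *Cdkn1a* is a known target of p53. Microglia divide in the embryonic and early postnatal brain, divide rarely in the adult, and expand from few surviving cells after depletion through the CSF1 receptor.

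The members with the widest range of expression are genes whose promoters are known to carry a cell cycle homology region (CHR), CCAAT boxes or E2F sites, so the windows around such letters are shown here. Promoters of 300 bases, most of them upstream of the start site, were taken from RefSeq (GRCm38.p6) and searched on both strands for the CHR letters TTTGAA and the variant with C at its centre (TTCGAA), for CCAAT, and for the E2F letters TTTGGCGC, TTTCCCGC, TTTCGCGC and TTTGCCGC. CHR letters were present in 19.2% of 32851 promoters, CCAAT in 37.4% and E2F letters in 2.26%, and no motif is contained in another. The promoter of *Ccnb2* held 2 CHR and 3 CCAAT matches, and that of *Cdk1* held 2 CHR, 3 CCAAT and 1 E2F match. The promoter of *Ccnb1* held 2 CCAAT matches and that of *Cdkn1b* 3, and 1 of 2 *Ccnd3* promoters held 1. No match to any of the motifs was found in the 2 *Cdkn1a* promoters. *Ccnd1*, *Ccnd2*, *Ccna2* and *Cdkn1c* were not searched. A match is a run of letters and not a measured site. In the windows of 30 bases below, capitals mark the motif and each sequence reads 5′ to 3′ along the strand of its gene.
*Ccnb2* CHR, chr9:70421533-70421562, minus strand: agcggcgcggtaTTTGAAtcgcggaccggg
*Ccnb2* CCAAT, chr9:70421559-70421588, minus strand: tgcgtgcgtctacCCAATagtgcgtcagcg
*Cdk1* CHR, chr10:69352910-69352939, minus strand: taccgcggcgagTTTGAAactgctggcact
*Cdk1* E2F, chr10:69353025-69353054, minus strand: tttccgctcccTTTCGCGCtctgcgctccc
*Ccnb1* CCAAT, chr13:100786537-100786566, minus strand: tgccacgaactggCCAATgaggagcgagcg
*Cdkn1b* CCAAT, chr6:134920353-134920382, plus strand: cccggcgccgagaCCAATggagctcctcct

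Values are TPM, a level scaled to transcript length and to the total of a library. TPM do not keep the depth. From the steps between low values, 1 read on a transcript of 1 kb was estimated to be worth 0.212 to 0.354 TPM. The libraries of a group correlated with each other at r = 0.9561 or above. All 7 microglial markers (*Tmem119*, *Sall1*, *P2ry12*, *Fcrls*, *Cx3cr1*, *Csf1r* and *C1qa*) were present in every group, at a summed 12400 to 37300 TPM per library. Library 1 of E17 MIA and library 3 of P7 MIA stood apart in neural markers. Neuronal markers summed to 1270 TPM in the former against 169 to 350 TPM in the other E17 libraries, and neural progenitor markers to 637 TPM in the latter against 253 to 384 TPM in the other P7 libraries. By *Xist*, 4 of the 6 CTRL libraries at P60 had under 1 TPM and 2 had over 50 TPM, whereas all 6 MG-REP libraries had over 50 TPM. Sex and diet were therefore partly confounded at P60, and values with log2 *Xist* in the model are given where they change a result. Every P20 library had *Xist*, at 172 to 193 TPM, and almost no RNA of Y-linked genes. The E17 libraries held both, as did the P7 libraries except library 2 of P7 MIA. Sex was thus also partly confounded with age, in the comparisons of P7 with P20 and of P20 with P60. Tests were made with limma on log2(TPM + 1) with all 10 groups in 1 fit, adjusted by Benjamini-Hochberg over the 14225 transcripts and called at an adjusted p under 0.05. Every adjusted p below is from this limma fit unless another test is named, and p-values measure the spread between these libraries. Dams were treated, and the labels do not give the dam or litter of a library. Libraries of a group from P7 on may therefore come from littermates, and litter was not in the model. Log2 fold changes are on that scale and understate changes of transcripts near 0 TPM.

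**Figure D1:**
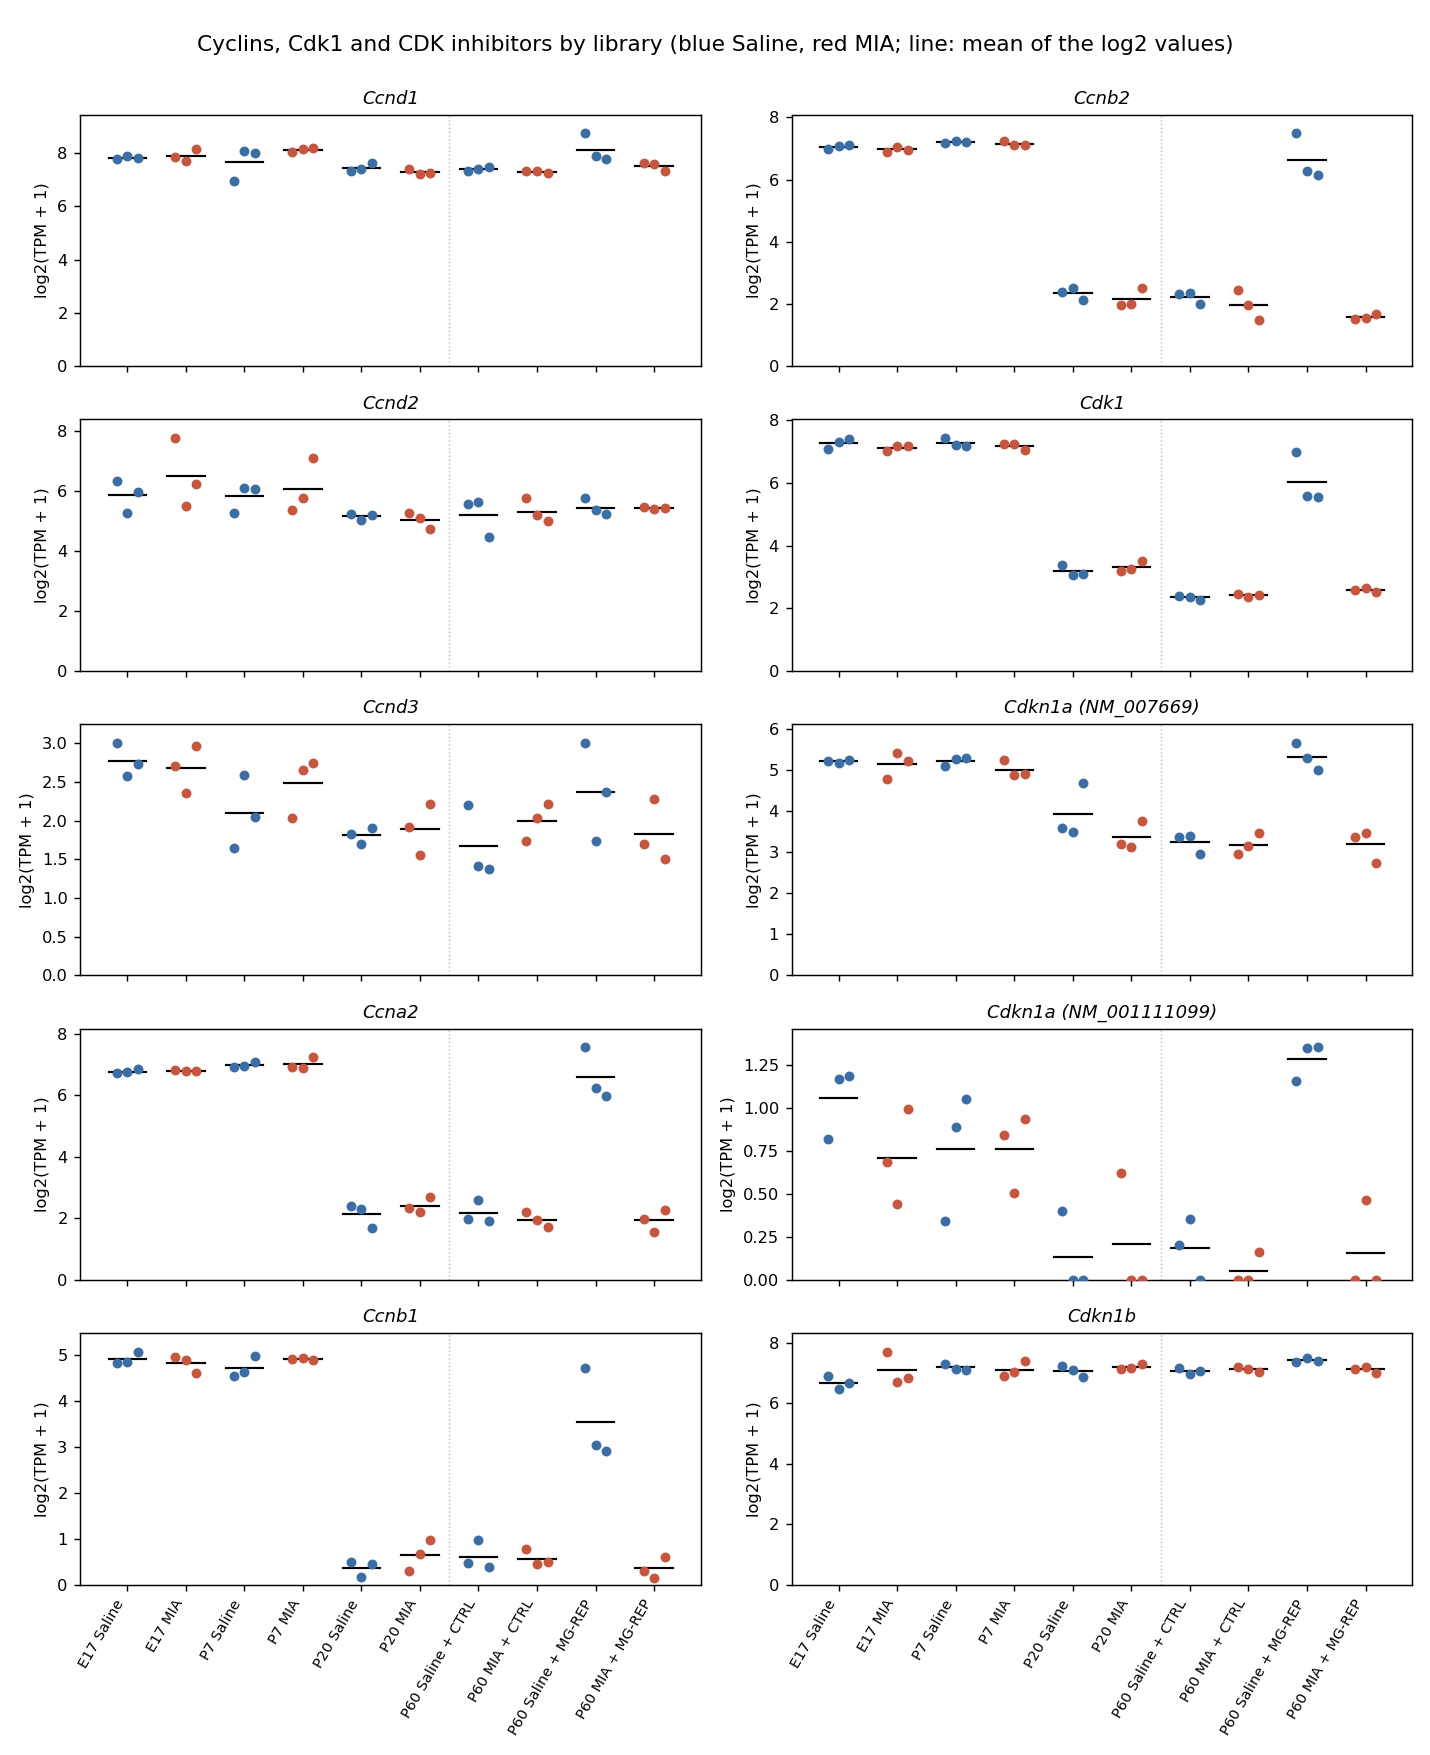
Level of each of the 10 member transcripts as log2(TPM + 1) on the vertical axis, in the 10 groups on the horizontal axis. Points are single libraries (blue Saline, red MIA), lines are the means of the 3 log2 values, and the dotted line separates the P60 groups. *Ccna2*, *Ccnb1*, *Ccnb2* and *Cdk1* were high at E17 and P7 and low from P20, with Saline + MG-REP as the only high P60 group, while *Ccnd1*, *Ccnd2* and *Cdkn1b* were expressed at all ages.

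The D-type cyclins were expressed at every age and none of them changed by as much as a log2 of 1 in a comparison that passed the test. *Ccnd1* (chr7:144929931-144939831, GRCm38.p6) encodes cyclin D1 and was the most abundant member over the 30 libraries, with a mean of 209.7 TPM. It made up 69.9% to 85.7% of the summed TPM of the 3 D cyclins as a group mean. *Ccnd2* (chr6:127125162-127152188) followed with a mean of 53.3 TPM, and *Ccnd3* (chr17:47505051-47599689) stood at 3.73 TPM.

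*Ccnd1* was at 221, 236 and 224 TPM in E17 Saline and at 124, 273 and 257 TPM in P7 Saline. It was at 161, 171 and 196 TPM in P20 Saline and at 160, 170 and 179 TPM in Saline + CTRL at P60. Library 1 of P7 Saline thus lay below the P20 libraries, and the other 2 lay above them. In MIA offspring the P7 libraries held 265, 281 and 291 TPM and the P20 libraries 168, 150 and 150 TPM, without overlap. The fall of *Ccnd1* from P7 to P20 was called in MIA offspring (log2 fold change -0.83 ± 0.22 SE, limma adjusted p = 0.00438). In Saline offspring it was not (-0.23 ± 0.22, adjusted p = 0.444), and without library 1 of P7 Saline it was (-0.59, adjusted p = 0.0174). Whether the 2 falls differ was not tested.

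*Ccnd2*, the gene of cyclin D2, was at 37.2 to 78.7 TPM in E17 Saline and at 31.3 to 36.4 TPM in P20 Saline. Its highest values were 216 TPM in library 1 of E17 MIA and 135 TPM in library 3 of P7 MIA, the libraries that stood apart in neural markers, and the part of other cells in these values was not tested. From P7 to P20, *Ccnd2* did not pass in MIA offspring (log2 fold change -1.04 ± 0.44, adjusted p = 0.0713), although the 3 P7 libraries (40.1, 53.2 and 135 TPM) lay above the P20 libraries (37.5, 33.5 and 25.3 TPM). Of 12635 transcripts compared over the 10 group means of log2(TPM + 1), those closest to *Ccnd2* by Pearson's r were *Prkar2b* (r = 0.992), *Hes5* (0.969), which is one of the neural progenitor markers, and *Nt5c3b* (0.969), of which 0 were among the 3 closest by Spearman's rho and 1 among the 20 closest. *Ccnd3* was low throughout, at 1.6 to 7.05 TPM.

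The 4 genes of S phase and mitosis were high in the embryonic and early postnatal libraries and fell to a few percent of that level by P20. *Ccnb2* (cyclin B2, chr9:70407689-70421554) was at 125, 133 and 137 TPM in E17 Saline and at 142, 149 and 146 TPM in P7 Saline, and then at 4.29, 4.71 and 3.34 TPM in P20 Saline. *Cdk1* (chr10:69335146-69352912), the kinase that triggers mitosis, was at 134, 159 and 167 TPM, at 172, 147 and 142 TPM, and at 9.46, 7.32 and 7.60 TPM in the same groups. No P20 library came near the range of the earlier ages.

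*Ccna2* (cyclin A2, chr3:36564865-36573038) went from 104, 106 and 115 TPM in E17 Saline and 119, 124 and 133 TPM in P7 Saline to 4.25, 3.97 and 2.24 TPM in P20 Saline. *Ccnb1* (cyclin B1, chr13:100778739-100786486) was the lowest of the group at each of these ages, with 27.5, 27.6 and 32.5 TPM, then 22.1, 23.7 and 30.4 TPM, then 0.41, 0.12 and 0.37 TPM. At P20 its values equalled a few reads, since 1 read on it was worth an estimated 0.085 to 0.142 TPM. Fewer dividing cells and less RNA of these genes per cell cannot be told apart in bulk RNA.

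Between E17 and P7, 0 of the 10 member transcripts were called in Saline offspring by limma, where 4.32% of all transcripts were, and 2 had an unadjusted p under 0.05. In MIA offspring 0 were called as well, against 2.39% of all, and 0 had an unadjusted p under 0.05. From P7 to P20, 6 of 10 were called lower in Saline offspring (20.1% of all transcripts were called lower) and 7 of 10 in MIA offspring (22.5% of all). The median log2 fold change of the members was -0.98 in Saline and -1.34 in MIA offspring, beside -0.02 and -0.09 over all transcripts. In Saline offspring the largest falls were those of *Ccna2* (-4.85 ± 0.28, adjusted p = 7.29e-12) and *Ccnb2* (-4.85 ± 0.25, adjusted p = 1.18e-12), followed by *Ccnb1* (-4.34 ± 0.31) and *Cdk1* (-4.09 ± 0.22). In MIA offspring the corresponding values were -4.59, -4.99, -4.26 and -3.86.

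From P20 to P60, *Cdk1* was the only member called. It fell from 7.32 to 9.46 TPM in P20 Saline to 4.27, 4.14 and 3.82 TPM in Saline + CTRL (log2 fold change -0.84 ± 0.22, adjusted p = 0.0374), and from 8.06 to 10.3 TPM in P20 MIA to 4.48, 4.18 and 4.33 TPM in MIA + CTRL (-0.90 ± 0.22, adjusted p = 0.0313). The groups did not overlap in either kind of offspring. This made 1 of 10 members called lower in each, beside 2.49% and 1.57% of all transcripts. The call was lost when any 1 of the 6 libraries was left out, and with log2 *Xist* in the model (-0.77, adjusted p = 0.24, and -0.83, adjusted p = 0.169). *Ccna2*, *Ccnb1* and *Ccnb2* were not called, with log2 fold changes from P20 to P60 of 0.03 (95% interval -0.55 to 0.62), 0.24 (-0.40 to 0.87) and -0.11 (-0.62 to 0.40) in Saline offspring.

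The inhibitors did not move as a family. *Cdkn1a* (p21, chr17:29090979-29100722) followed the mitotic genes at a smaller scale. Its main transcript NM_007669 was at 36.6, 35.3 and 36.6 TPM in E17 Saline and at 33.3, 37.4 and 38.4 TPM in P7 Saline. It was at 11.02, 10.2 and 24.8 TPM in P20 Saline and at 9.33, 9.49 and 6.73 TPM in Saline + CTRL. Library 3 of P20 Saline lay between the ages, and the groups still did not overlap. From P7 to P20, NM_007669 fell by 1.30 on the log2 scale in Saline offspring (SE 0.27, adjusted p = 0.000534) and by 1.65 in MIA offspring (SE 0.27, adjusted p = 3.78e-05). The second transcript, NM_001111099, was at 0 TPM in 9 of 30 libraries and never above 1.55 TPM. It was called lower from P7 to P20 in both kinds of offspring, but its groups overlapped, and leaving out 1 of several single libraries ended the call in each.

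*Cdkn1b* (p27, chr6:134920401-134925525), an inhibitor associated with cells at rest, stayed between 86.9 and 207 TPM in all 30 libraries, the narrowest range of the members (2.38-fold). It was at 119, 86.9 and 101 TPM in E17 Saline, at 156, 141 and 137 TPM in P7 Saline and at 149, 137 and 116 TPM in P20 Saline. The P7 and P20 libraries overlapped (log2 fold change -0.11 ± 0.17, adjusted p = 0.651). The highest value, 207 TPM, came from library 1 of E17 MIA, whose neural markers are given above.

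Maternal immune activation was compared with saline at each age by limma. Of the 10 members, 0 were called at E17, P7, P20 and P60 on control chow, where 0% of all transcripts were called at each age. With an unadjusted p under 0.05 there were 1, 0, 1 and 0 members, beside 585, 335, 457 and 256 of all transcripts. The log2 fold changes of the members, MIA against Saline, lay between -0.35 and 0.64 at E17, between -0.21 and 0.44 at P7, between -0.55 and 0.29 at P20 and between -0.26 and 0.33 at P60. The members with an unadjusted p under 0.05 were *Cdkn1b* at E17 (0.41 ± 0.17, adjusted p = 0.754) and *Cdkn1a* NM_007669 at P20 (-0.55 ± 0.27, adjusted p = 1). *Ccnd1* at P60 was at 160, 170 and 179 TPM in Saline + CTRL and 159, 159 and 152 TPM in MIA + CTRL (-0.11 ± 0.22, adjusted p = 1). These groups did not overlap, but the share of all transcripts without overlap was not counted.

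After repopulation the offspring of saline dams expressed the mitotic genes again, and the offspring of dams with immune activation did not. *Ccna2* was at 2.96, 5.09 and 2.77 TPM in Saline + CTRL and at 188, 73.6 and 62.2 TPM in Saline + MG-REP. *Ccnb2* was at 4.06, 4.11 and 3.00 TPM in the former and at 178, 76.5 and 69.1 TPM in the latter. *Cdk1* went to 125, 46.9 and 46.1 TPM and *Ccnb1*, from 0.39, 0.95 and 0.31 TPM, to 25.1, 7.17 and 6.50 TPM. The groups did not overlap for any of the 4 genes, and library 1 of Saline + MG-REP was above the other 2 in each. How many of all transcripts did not overlap here was not counted.

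In MIA + MG-REP the same genes stayed low. *Ccna2* was at 2.99, 1.92 and 3.80 TPM, *Ccnb2* at 1.87, 1.91 and 2.20 TPM and *Ccnb1* at 0.23, 0.11 and 0.52 TPM. *Cdk1* was at 5.05, 5.31 and 4.75 TPM, each above the 3 MIA + CTRL libraries, but the difference did not pass the test (log2 fold change 0.18, 95% interval -0.28 to 0.64, adjusted p = 0.978).

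In Saline offspring 7 of 10 member transcripts were called higher in MG-REP than in CTRL and 0 lower, where 11.9% of all transcripts were called higher and 14.9% lower. The median log2 fold change was 1.59 over the members and -0.14 over all transcripts. The rises were 4.42 ± 0.28 for *Ccna2* (adjusted p = 3.13e-11), 4.40 ± 0.25 for *Ccnb2* (6.26e-12), 3.70 ± 0.22 for *Cdk1* (2.10e-11) and 2.94 ± 0.31 for *Ccnb1* (8.44e-08). Without library 1 of Saline + MG-REP they were 3.93, 3.97, 3.23 and 2.36, all still called, and with log2 *Xist* in the model 4.40, 4.08, 3.63 and 2.90.

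*Cdkn1a* rose with them. NM_007669 was at 9.33, 9.49 and 6.73 TPM in Saline + CTRL and at 49.8, 38.3 and 30.9 TPM in Saline + MG-REP (log2 fold change 2.08 ± 0.27, adjusted p = 1.76e-06), and at 9.33, 10.1 and 5.71 TPM in MIA + MG-REP. NM_001111099 was at 0.15, 0.28 and 0 TPM and rose to 1.23, 1.54 and 1.55 TPM (1.10 ± 0.20, adjusted p = 0.000173), a level of a few reads. *Ccnd1* was at 160 to 179 TPM in Saline + CTRL and at 427, 236 and 217 TPM in Saline + MG-REP (0.72 ± 0.22, adjusted p = 0.0157). That call was lost without library 1 of Saline + MG-REP (0.42, adjusted p = 0.188), without library 1 of Saline + CTRL (0.68, adjusted p = 0.0554) and with log2 *Xist* in the model (0.76, adjusted p = 0.0545).

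The other 3 members did not pass in Saline offspring. *Cdkn1b* was at 143, 124 and 133 TPM in Saline + CTRL and at 162, 177 and 169 TPM in Saline + MG-REP, without overlap, with a log2 fold change of 0.35 (95% interval -0.01 to 0.70, adjusted p = 0.147), and it was called under median-ratio scaling (0.48, adjusted p = 0.01). *Ccnd3* had 0.70 (0.06 to 1.34, adjusted p = 0.0981). *Ccnd2* had 0.23 (-0.69 to 1.15, adjusted p = 0.759), and its sign turned with log2 *Xist* in the model (-0.12).

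In MIA offspring 0 of 10 members were called between MG-REP and CTRL by limma, where 0.555% of all transcripts were, and 0 had an unadjusted p under 0.05. Their log2 fold changes lay between -0.39 for *Ccnb2* (95% interval -0.90 to 0.12) and 0.22 for *Ccnd1* (-0.24 to 0.67). The difference between the 2 effects of repopulation, MIA minus Saline, was tested in the same fit. It was called lower for 6 of 10 member transcripts, of which 2 were of *Cdkn1a*, where 6.09% of all transcripts were called lower. The differences were -4.79 ± 0.35 for *Ccnb2* (adjusted p = 4.78e-09), -4.45 ± 0.40 for *Ccna2* (9.63e-08), -3.52 ± 0.32 for *Cdk1* (9.63e-08), -3.15 ± 0.43 for *Ccnb1* (2.62e-05), -2.07 ± 0.38 for *Cdkn1a* NM_007669 (0.000596) and -1.0 ± 0.28 for NM_001111099 (0.023). With only the CTRL libraries that had *Xist*, an alternative chosen after seeing the data, both *Cdkn1a* calls were lost (-1.70, adjusted p = 0.0899, and -0.93, adjusted p = 0.285). *Ccnd1* (-0.51 ± 0.31, adjusted p = 0.368) and *Cdkn1b* (-0.35 ± 0.24, adjusted p = 0.457) did not pass.

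**Figure D2:**
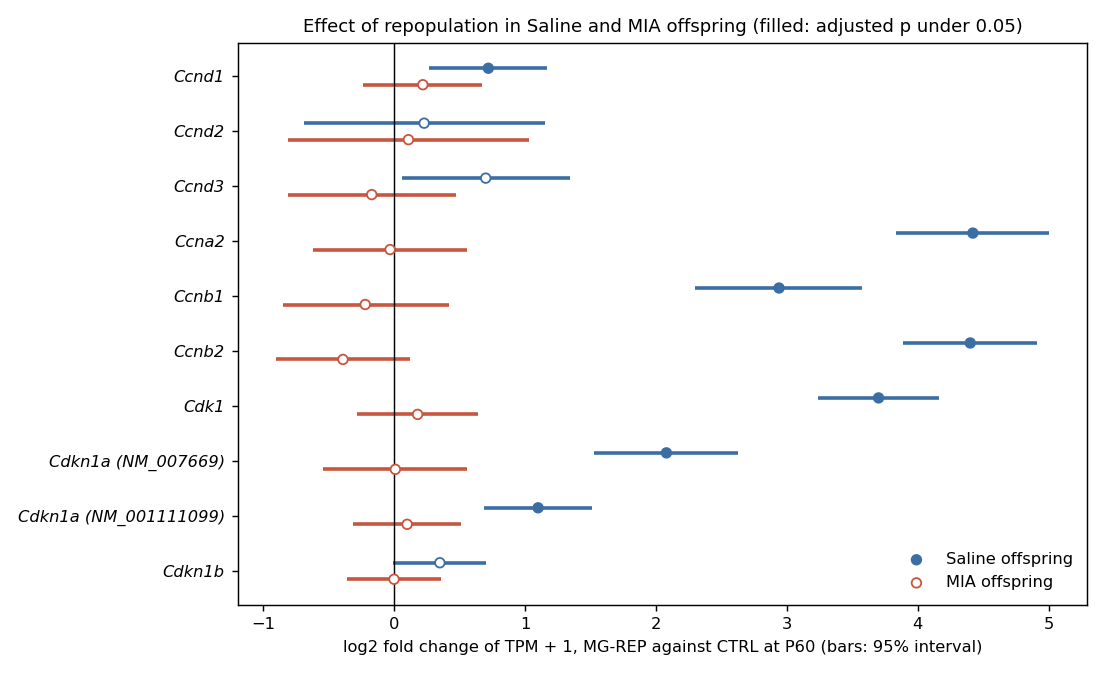
Log2 fold change of TPM + 1 between MG-REP and CTRL at P60 on the horizontal axis for each member transcript, in Saline (blue) and MIA (red) offspring, with 95% intervals from limma over 3 libraries per group. Filled points have an adjusted p under 0.05: 7 of 10 in Saline offspring and 0 of 10 in MIA offspring.

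Directly between the repopulated groups, 7 of 10 member transcripts were called lower in MIA + MG-REP than in Saline + MG-REP, where 11% of all transcripts were. *Ccnb2* differed by -5.05 ± 0.25 on the log2 scale, *Ccna2* by -4.65 ± 0.28, *Cdk1* by -3.45 ± 0.22 and *Ccnb1* by -3.20 ± 0.31. All 6 libraries of this comparison had over 50 TPM of *Xist*. The comparison shares its Saline + MG-REP libraries with the ones above. *Ccnd1* was called in it (-0.62 ± 0.22, adjusted p = 0.0444), and this call too was lost without library 1 of Saline + MG-REP (-0.31, adjusted p = 0.402).

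Markers of other cells were read beside the rise in Saline + MG-REP. The 7 microglial markers summed to 18200 to 20100 TPM in Saline + MG-REP against 26000 to 37300 TPM in Saline + CTRL. The 5 border macrophage markers summed to 1320, 685 and 687 TPM in libraries 1, 2 and 3 of Saline + MG-REP and to 420 to 566 TPM in Saline + CTRL, with the highest sum in library 1, where the mitotic genes were also highest. Of the 5, *Pf4* carried the rise, with a mean of 577 TPM against 137 TPM in Saline + CTRL, while *Mrc1* was at 186 against 195 TPM, *Lyve1* at 30.9 against 44.8 TPM and *Cd163* at 0.02 against 0.54 TPM. The part of border macrophages in the rise was not tested. For neutrophils and monocytes, 6 of 7 markers had a row, and they summed to 88.8 TPM in library 1, 4990 TPM in library 2 and 344 TPM in library 3. Without library 2 the rises of *Ccna2*, *Ccnb2*, *Cdk1* and *Ccnb1* were 4.60, 4.57, 3.93 and 3.20. Sums for neural progenitors (6 of 8 markers, 146 to 187 TPM) lay within those of Saline + CTRL (78.5 to 273 TPM), and endothelial sums (5 of 7 markers) were lower, at 265 to 550 TPM against 708 to 1130 TPM. The part of neutrophils, monocytes, neural progenitors and endothelial cells in the rise was not tested either.

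The repopulated libraries were also set beside the young ones, to see whether the members returned to the immature level. Against P7 Saline, 1 member was called higher in Saline + MG-REP and 2 lower, where 11.3% of all transcripts were called higher and 27.3% lower. These counts were near the shares over all transcripts and do not set the members apart. *Cdk1* was below P7 (46.1 to 125 TPM against 142 to 172 TPM, without overlap, log2 fold change -1.23 ± 0.22, adjusted p = 0.000138), and so was *Ccnb1* (-1.16 ± 0.31, adjusted p = 0.0043), whose groups overlapped. *Ccna2* (-0.39, 95% interval -0.98 to 0.19, adjusted p = 0.288) and *Ccnb2* (-0.57, -1.08 to -0.06, adjusted p = 0.0719) did not pass. Without library 1 of Saline + MG-REP *Ccna2* and *Ccnb2* did, at -0.88 (adjusted p = 0.00409) and -0.99 (adjusted p = 0.000419), and 5 members were called. *Cdkn1a* NM_007669 did not pass either (0.10, 95% interval -0.45 to 0.65, adjusted p = 0.8), and its sign turned without library 1 (-0.07). NM_001111099 was the member called higher (0.52 ± 0.20, adjusted p = 0.0407), a call that ended without library 1 of P7 Saline or without library 2 or 3 of Saline + MG-REP. Against E17 Saline, 1 member was called higher, *Cdkn1b* (0.73 ± 0.17, adjusted p = 0.0017), and 2 lower, *Cdk1* (-1.22 ± 0.22) and *Ccnb1* (-1.36 ± 0.31), where 13.6% of all transcripts were called higher and 24.6% lower. The counts against E17 were near those shares as well. The median over all transcripts was -0.18 against P7 and -0.13 against E17, and *Cdk1* was still called under median-ratio scaling, which sets those medians near 0 (-0.99, adjusted p = 0.00433, and -1.05, adjusted p = 0.00246).

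Ratios between the mitotic members within a library were chosen after the values were seen and are given as a description. The exact permutation test used on them could not pass with 3 libraries per group. *Ccna2* was 1.5, 1.57 and 1.35 times *Cdk1* in the 3 libraries of Saline + MG-REP, 0.692, 0.841 and 0.937 times in P7 Saline and 0.775, 0.666 and 0.691 times in E17 Saline. *Ccnb2* was 1.52 ± 0.107 times *Cdk1* (SD, n = 3) after repopulation, 0.955 ± 0.109 at P7 and 0.865 ± 0.0611 at E17. Both ratios were above every library of the young groups, library 1 of Saline + MG-REP included. The ratio of *Ccnb1* to *Cdk1* overlapped between the groups, at 0.165 ± 0.0313 after repopulation, 0.168 ± 0.0427 at P7 and 0.191 ± 0.0162 at E17, and the ratio of *Ccnb1* to *Ccnb2* was lower, at 0.11 ± 0.0273 against 0.174 ± 0.0296 and 0.221 ± 0.0144. Of 8 two-sided exact permutation tests, 6 gave p = 0.1, with a Benjamini-Hochberg value of 0.13. A p of 0.1 is the smallest that 3 against 3 libraries allow, so this test could not decide whether those ratios differ. The tests for *Ccnb1* against *Cdk1* gave p = 0.9 for P7 and p = 0.3 for E17 by the same exact test.

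**Figure D3:**
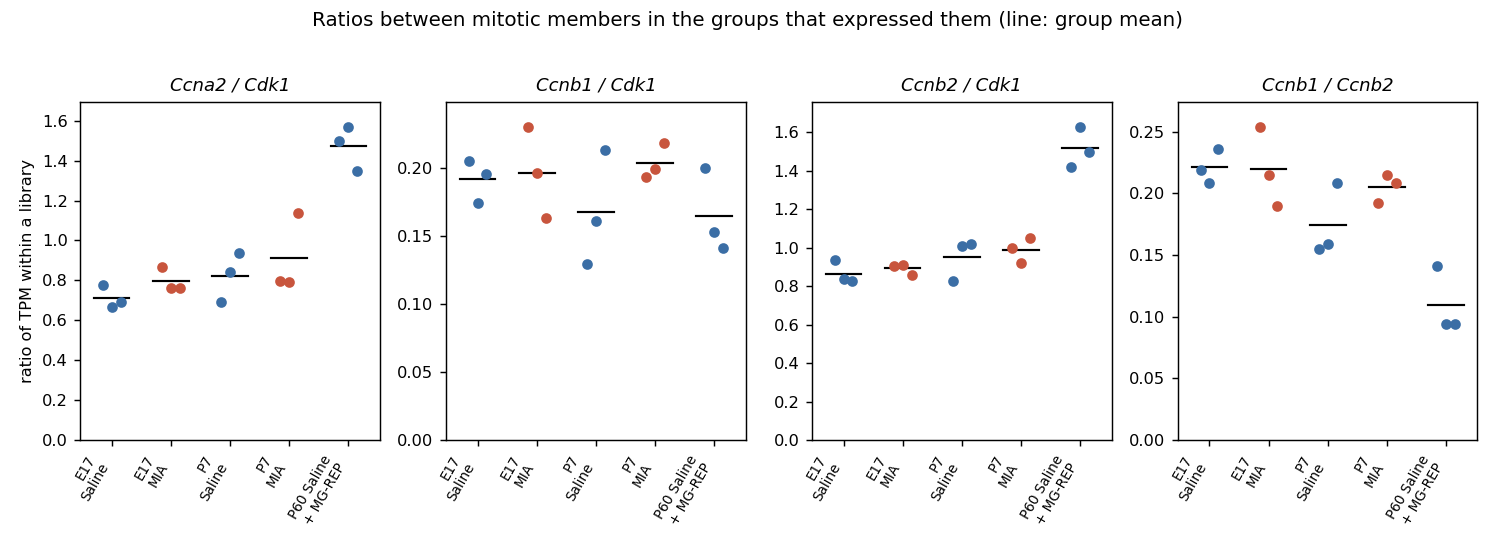
Ratio of TPM between mitotic members within a library on the vertical axis, in the 5 groups in which these genes were high. Points are libraries (blue Saline, red MIA) and lines are means of 3. The ratios of *Ccna2* and *Ccnb2* to *Cdk1* lie at 1.35 or above in Saline + MG-REP and at 1.14 or below in the young groups, and *Ccnb1* against *Cdk1* overlaps between them.

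Over the 10 group means, likeness was also read for the mitotic members by Pearson's r. *Mki67*, which encodes the proliferation marker Ki-67, was closest to *Ccna2* (r = 1.000), and *Cdca3* (1.000) and *Spc24* (1.000) were closest to *Ccnb2*. *Rrm1*, a subunit of ribonucleotide reductase, was closest to *Ccnb1* (0.999), and *Wdhd1*, which acts in DNA replication, to *Cdk1* (0.998). *Cdkn1b* had no transcript closer than *Tmed8* (0.927), and *Ccnd1* none closer than *Mgat2* (0.957). The order depends on the measure, since by Spearman's rho none of the 3 closest transcripts of *Ccna2*, *Ccnb1*, *Ccnb2* or *Cdk1* was among the 3 closest by Pearson's r. The 10 group means share libraries and depth, and these values are descriptions.

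Other genes of the cell cycle were read from lists drawn up by role, with earlier results of these data known. The regulators that switch CDK1 on and off (9 of 10 genes had a row) moved with *Ccna2*, *Ccnb1*, *Ccnb2* and *Cdk1* in several comparisons. From P7 to P20 in Saline offspring, 9 of 9 were called lower (median log2 -2.99, where 20.1% of all transcripts were called lower and 16.1% higher). In MIA offspring 9 of 9 were called lower as well (median -3.08, beside 22.5% of all transcripts). Between the repopulated groups 9 of 9 were called lower in MIA + MG-REP (median -2.60, beside 11% of all transcripts). In Saline + MG-REP 9 of 9 were called higher than in CTRL (median 2.25, beside the 11.9% given above). The largest rises were those of *Cdkn3* (4.51 ± 0.38), a phosphatase of CDKs, *Plk1* (3.66 ± 0.28), a mitotic kinase, and *Cks1b* (3.35 ± 0.32), a CDK subunit. *Wee1* (1.69 ± 0.29) and *Pkmyt1* (2.25 ± 0.28), which encode inhibitors of CDK1, rose as well as *Cdc25c* (3.05 ± 0.33), which encodes its activator, and all 3 were called lower than at P7 (-0.93, -0.98 and -1.20). In MIA offspring 0 of 9 were called between MG-REP and CTRL by limma, beside 0.555% of all transcripts. From P20 to P60, where *Cdk1* was called lower, 0 of 9 were called in either kind of offspring. There 2.49% of all transcripts were called lower in Saline offspring and 1.57% in MIA offspring. With shares this small, 0 of 9 is not read as a result about the list.

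Of 12 transcripts of the pocket proteins and E2F factors, 8 were called after repopulation in Saline offspring, 7 higher and 1 lower, beside 11.9% and 14.9% of all transcripts. The largest rises were *E2f8* (4.08 ± 0.25), *E2f7* (2.42 ± 0.25) and *E2f1* NM_007891 (2.07 ± 0.26). *E2f7* and *E2f8* encode repressors of E2F targets. Of 7 transcripts of the proteins that degrade cyclins and inhibitors, 3 were called higher (11.9% of all transcripts were): *Ube2c* (5.50 ± 0.35) and *Cdc20* (3.37 ± 0.24), which belong to the machinery of the anaphase-promoting complex, and *Fbxo5* (1.13 ± 0.25), which encodes an inhibitor of that complex. *Skp2*, whose product marks p27 for degradation, had 0.06 ± 0.18 and was not called. Of 14 other cyclin genes, 6 were called higher and 1 lower, beside the same shares of 11.9% and 14.9%. *Ccnf* (3.60 ± 0.28), *Ccne1* (2.60 ± 0.27), the cyclin of entry into S phase, and *Ccng1* (0.70 ± 0.12), a target of p53, moved most. Of the 4 other cell cycle CDKs only *Cdk4*, a partner of the D cyclins, was called higher (0.77 ± 0.17, adjusted p = 0.00103).

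p53 and its other targets were read because of *Cdkn1a*. After repopulation in Saline offspring 1 of 13 transcripts was called higher, *Bax* (0.75 ± 0.12), and 1 lower, *Btg2* (-0.83 ± 0.22), beside 11.9% and 14.9% of all transcripts, and the median of the list was -0.03. *Ccng1*, read above with the cyclins, was called higher. From P7 to P20 in Saline offspring, 4 of 13 were called, 1 higher (*Phlda3*, 1.81 ± 0.34) and 3 lower, with *Plk2* (-2.10 ± 0.34) and *Gadd45a* (-1.12 ± 0.36) ahead, beside 16.1% of all transcripts called higher and 20.1% lower. The part of p53 in the change of *Cdkn1a* was not tested.

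The INK4 inhibitors, which bind CDK4 and CDK6 and keep D cyclins from them, held a transcript that rose in both kinds of offspring. *Cdkn2a* encodes p16INK4a from transcript NM_001040654 and p19ARF from NM_009877. NM_001040654 was at 0 TPM in the 3 libraries of Saline + CTRL and at 0, 0.65 and 0 TPM in MIA + CTRL. It was at 7.59, 4.48 and 6.76 TPM in Saline + MG-REP and at 8.02, 7.78 and 4.0 TPM in MIA + MG-REP. Both repopulated groups were thus above every control library, and no library of E17 to P20 exceeded 0.33 TPM. The authors kept transcripts that reached a set count in a few libraries. NM_001040654 was near 0 outside the MG-REP groups, so its place in the data appears to rest on the groups where it was high. The fit called it higher in MG-REP than in CTRL in both kinds of offspring. A transcript kept through the groups where it was high is likely to be called there, so these calls are not support. No p is given for them. In Saline offspring no fold is given, since every control library was listed at 0. In MIA offspring the difference was 2.64 ± 0.21 on the log2(TPM + 1) scale. The 2 rises differed by -0.20 ± 0.29 on that scale (MIA minus Saline, adjusted p = 0.804). Among all the lists read here it was the only transcript called between MG-REP and CTRL in MIA offspring.

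NM_009877 differed from the mitotic members in the young brain and, like them, rose in Saline + MG-REP. It was at 1.14, 1.18 and 0.24 TPM in E17 Saline and at 5.37, 3.81 and 5.71 TPM in P7 Saline, a rise that was called in Saline (1.72 ± 0.38, adjusted p = 0.00976) and in MIA offspring (1.83 ± 0.38, adjusted p = 0.00932), where no member was called. From P7 to P20 it fell by 2.20 on the log2 scale in Saline offspring. At P60 it was at 0, 0 and 0.52 TPM in Saline + CTRL and at 11.1, 10.3 and 11.2 TPM in Saline + MG-REP, and at 3.39, 0.53 and 1.31 TPM in MIA + MG-REP. Its rise was called in Saline offspring (3.36 ± 0.38, adjusted p = 2.50e-07) and not in MIA offspring (1.17 ± 0.38, adjusted p = 0.298), and the difference was called (-2.19 ± 0.53, adjusted p = 0.00825). It was called higher in Saline + MG-REP than in P7 Saline (adjusted p = 0.0382), where *Cdk1* and *Ccnb1* were lower. Both transcripts share exons, so the division of reads between them is uncertain. *Cdkn2c* NM_001301368, a transcript of p18INK4c, had a mean of 4.04 TPM in Saline + CTRL, 45.4 TPM in Saline + MG-REP (3.06 ± 0.25) and 3.22 TPM in MIA + MG-REP. It was also high in the young brain, with means of 53.3 TPM in E17 Saline and 72.7 TPM in P7 Saline, and 4.5 TPM in P20 Saline. Saline + MG-REP was called lower than P7 Saline for it (-0.82 ± 0.25, adjusted p = 0.0137). The other *Cdkn2c* transcript, NM_007671, was not called between MG-REP and CTRL in Saline offspring (0.49 ± 0.28, adjusted p = 0.221). In all, 4 of 6 transcripts of the INK4 genes were called higher in Saline offspring, beside 11.9% of all transcripts. In MIA offspring 1 of 6 was called, beside 0.555%. The 6 include NM_009877, which encodes p19ARF and not an INK4 protein, and which was among the 4. NM_001040654 was also among the 4 and was the 1 called in MIA offspring, so both counts rest in part on it.

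**Figure D4:**
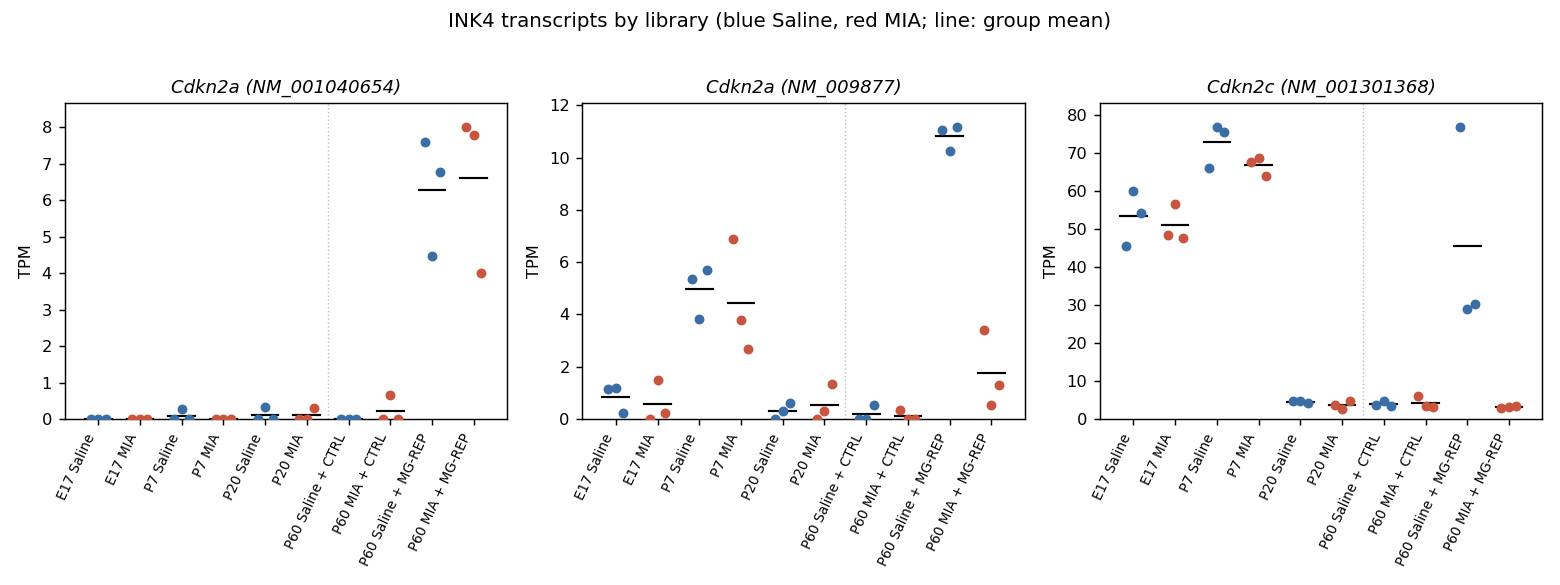
TPM on the vertical axis of 3 transcripts of INK4 genes in the 10 groups, with single libraries as points (blue Saline, red MIA) and group means as lines. NM_009877 encodes p19ARF. NM_001040654 of *Cdkn2a* is at 4.0 TPM or above in the 6 MG-REP libraries and at 0.65 TPM or below in the other 24, while NM_009877 and *Cdkn2c* are high in Saline + MG-REP and not in MIA + MG-REP. *Cdkn2c* is also high at E17 and P7.

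Some members share bases with another gene on the opposite strand, and the libraries were not stranded. *Ccna2* overlaps 510 exonic bases of *Exosc9*, which was at 63.3 ± 9.46 TPM in P7 Saline, 36.8 ± 1.57 TPM in Saline + CTRL and 44.0 ± 7.43 TPM in Saline + MG-REP (SD, n = 3). *Ccnd1* overlaps 1100 bases of *LTO1* (listed as *Oraov1*) and *Ccnd3* 361 bases of *Bysl*, and *Ccnd2* overlaps 2 annotated antisense RNAs. Processed pseudogenes are annotated for *Ccnd3*, *Ccnb1* and *Ccnb2*, and short reads from these genes may have been divided or dropped.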

How the data were processed

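Poly(A) RNA of CD11B-selected microglia was sequenced as non-stranded single-end reads. The authors' methods name Rsubread as the aligner, mm10 as the genome and featureCounts with a UCSC gene annotation as the counter, and transcripts with few counts were dropped. The file was deposited in TPM, a level per transcript length and library total, with a column for every library; how the authors computed them is not given in the sources used here. A column of module names from the authors' own clustering was not used. Library sums of TPM lay between 995495 and 998012, and no 2 libraries were identical.

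Groups were taken from the labels. limma 3.58.1 in R 4.3.3 was fitted to log2(TPM + 1) with 10 group means and an intensity trend, over 16 comparisons, with Benjamini-Hochberg adjustment over all transcripts. The study's own count test was not used, since TPM are not counts. Figures were drawn with matplotlib 3.10.9 in Python 3.11.15. The fit was tested on simulated data. Alternatives were a pseudocount of 0.1, a minimum mean of 1 TPM, median-ratio and quantile scaling, log2 *Xist* in the model, the compared groups alone, a fit without the trend, a replicate block, and each library left out. CTRL libraries with *Xist* only, and leaving out library 1 of E17 MIA with library 3 of P7 MIA, were added after seeing the data. The members and lists were chosen with earlier results of these data known. Beside the members, up to 3 called genes with the largest change were named per list and comparison, and other genes named were chosen after their values were seen. Same-numbered libraries deviated together at P20 (r of 0.104 to 0.238 over 3 pairs), but not at E17 (0.000317 to 0.656), P7 (-0.11 to 0.131) or P60 (-0.531 to 0.634). One further marker of the microglial list is not reported here and was left out of its sums.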

Additional observations from a re-analysis of the deposited data

Results flagged for a closer look

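The effect of repopulation (MG-REP against CTRL, log2(TPM + 1), 3 libraries per group) differed between MIA and Saline offspring for 6 of the 10 member transcripts. The difference itself, MIA minus Saline, was tested as a contrast of the limma fit. It was -4.79 for *Ccnb2*, -4.45 for *Ccna2*, -3.52 for *Cdk1*, -3.15 for *Ccnb1*, -2.07 for *Cdkn1a* NM_007669 and -1.0 for *Cdkn1a* NM_001111099. With the CTRL libraries restricted to those with over 50 TPM of *Xist*, an alternative chosen after seeing the data, the *Cdkn1a* differences no longer passed (-1.70, limma adjusted p = 0.0899, and -0.93, adjusted p = 0.285), and those of the 4 mitotic genes did.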

How the results depend on the processing

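The call of *Cdk1* from P20 to P60 was the least stable. The count of 1 called member became 0 in Saline offspring under median-ratio scaling, quantile normalization, log2 *Xist* in the model, the compared groups alone and CTRL libraries with *Xist* only, and 0 in MIA offspring under median-ratio scaling, log2 *Xist* and CTRL libraries with *Xist* only. It was 0 to 0 over the libraries left out in each. Against P7 Saline, the 3 called members of Saline + MG-REP became 5 under median-ratio scaling and 1 with the compared groups alone, and ranged from 2 to 5 over the libraries left out. Against E17 Saline the 3 ranged from 3 to 5. The highest counts came without library 1 of Saline + MG-REP. The cause was not tested.

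Signs turned in 4 of 828 recomputed member values, all of transcripts that were not called. The MG-REP effect on *Ccnd2* in Saline offspring was -0.12 with log2 *Xist*, -0.13 with CTRL libraries with *Xist* only, and -0.15 to 0.43 over the libraries left out. *Cdkn1a* NM_007669 against P7 Saline was -0.07 to 0.26 over the libraries left out. Of the 828 values, 57 lost a call and 8 gained one. With the replicate block (consensus correlation 0.028) the count of called members was still 7 for MG-REP against CTRL in Saline offspring, and no count of called members changed.

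Median-ratio scaling moved the share of called transcripts that were higher from 44.3% to 57.5% for MG-REP against CTRL in Saline offspring, from 29.3% to 52.2% against P7 Saline, from 35.5% to 53.2% against E17 Saline, from 29.1% to 44.8% for P60 against P20 in Saline offspring, from 39.5% to 51.6% in MIA offspring, and from 36.7% to 49.2% for P20 against P7 in MIA offspring. Depth limits transcripts of a few reads, *Ccnb1* from P20 and *Cdkn1a* NM_001111099.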
